A study of Homo sapiens with 9 samples.

Results

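The cytochrome P450 (CYP), UDP-glucuronosyltransferase (UGT), glutathione S-transferase (GST) and sulfotransferase (SULT) genes were examined in HepG2 cells, an established human liver tumor line, with and without glutamine (Gln). Members were the rows of the expression table whose symbols carry these 4 family names, leaving out CYP1A1, CYP1A2, CYP51A1, pseudogenes and symbols with a hyphen. This gave 86 genes of the 22587 in the table, with 43 CYP, 18 UGT, 14 GST and 11 SULT genes, and all 86 were found as protein-coding genes in RefSeq. The cells were tumor cells of 1 line in high glucose medium with serum, and carried no labelled genetic change. The 3 groups were cultures in normal medium (Gln added) and cultures deprived of Gln for 12 h or for 24 h, with 3 libraries each. The labels give no time for the Gln added cultures, and neither deprivation time has Gln added cultures of its own. Time in culture and Gln loss therefore cannot be told apart here, also where 24 h is compared with 12 h. GlutaMAX, a dipeptide that releases Gln, is given in the labels as the treatment of the Gln added cultures, whereas their treatment protocol places it in the glutamine-free medium of the deprivation experiment. Nothing in the labels says that the libraries of a group came from separate experiments, so p-values measure the spread between these libraries, which may be technical.

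These families handle foreign compounds and many of the liver's own small molecules. CYP enzymes are haem proteins that insert oxygen into their substrates, and the resulting or existing groups are then conjugated to glucuronic acid by UGT enzymes, to glutathione by GST enzymes and to sulfate by SULT enzymes, which makes the products soluble enough to leave the cell. The hepatocyte is the main site of this work, and transformed liver lines such as HepG2 are known to hold many of these genes at low levels. Several members serve bile acid, steroid, fatty acid and vitamin D metabolism rather than drugs.

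Expression was deposited as FPKM (fragments scaled to the length of the gene and to the depth of the library). Each library held between 29621270 and 36261546 fragments on genes. The 8 hepatocyte or hepatoma markers were all present, with a summed level of 9226 to 9304 FPKM with Gln, 7815 to 8126 at 12 h and 7877 to 8450 at 24 h, and 7 of them were called lower at 12 h and 6 at 24 h. The share called lower over all genes tested was 31% at 12 h and 31.7% at 24 h. Fibroblast markers (3 of 4 in the table) summed to at most 0.0352 FPKM in a library and all 3 were at 0 with Gln. The 3 endothelial markers summed to at most 0.366 FPKM. Of the 4 leukocyte markers only CD68 and CD14 were in the table, summing to 37.4 to 37.7 FPKM with Gln, 29.6 to 32.7 at 12 h and 22.2 to 26.9 at 24 h. Nearly all of this was CD68, with means of 36.15, 29.62 and 22.9 FPKM, beside 1.42, 1.11 and 1.32 for CD14. PTPRC and CD3E were not rows of the table. The part of the falling hepatocyte markers in the results below was not tested, and in bulk RNA fewer expressing cells and less RNA per cell cannot be told apart.

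Fewer members than not were abundant enough to be tested. When averaged over the 9 libraries, 40 members reached 0.5 FPKM, the minimum for testing (17 CYP, 7 UGT, 10 GST and 6 SULT), and 15 lay above 10 FPKM on average. GSTO1 (mean 202.3 FPKM), CYP27A1 (90.3 FPKM), SULT2A1 (78.3 FPKM), SULT1A1 (63.3 FPKM), UGT2A3 (44.6 FPKM) and GSTK1 (40.1 FPKM) were the most abundant per length. The remaining 46 members were not tested, 32 of them with a mean under 0.1 FPKM, and 26 were at 0 in at least 1 library. Among these were several of the classical drug-metabolising genes of adult liver. CYP2A6 and CYP2C19 had 1 fragment each in all 9 libraries, CYP26A1 and GSTP1 had 5 each, GSTM1 had 6 and CYP1B1 had 14. A change in these 6 genes was not detectable at this depth, since 3 fragments, the limit that a count of 0 allows, correspond to 0.112 to 0.137 FPKM for GSTP1, above its level in every library (counting error only). CYP3A4, the main drug-oxidising form of adult liver, had 50 fragments in all and was at 0 in no library. It had 0.0806, 0.0823 and 0.0809 FPKM with Gln, 0.0607, 0.0297 and 0.00998 at 12 h and 0.0603, 0.0757 and 0.0412 at 24 h. Every deprived library of CYP3A4 lay below every Gln added library, and it was called lower at 12 h only where no minimum was set (log2 −0.46, adjusted p = 0.037).

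**Figure D1:**
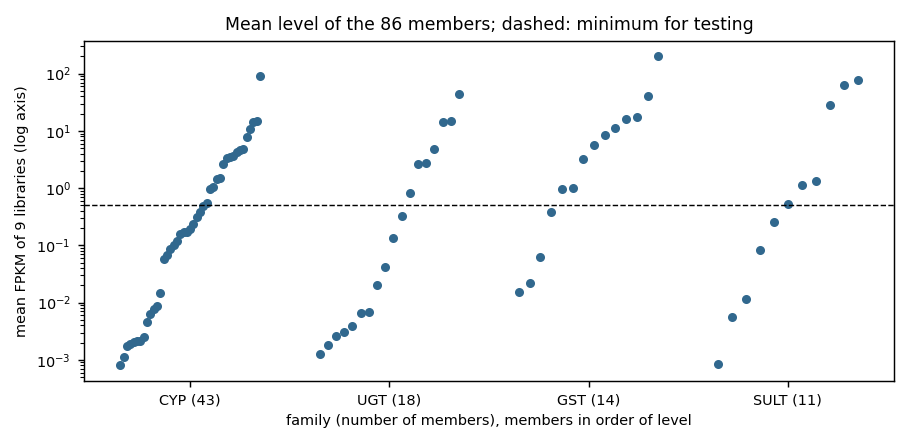
Mean FPKM over the 9 libraries (log axis) of each member, with the members of a family placed from the lowest to the highest and the minimum of 0.5 FPKM drawn as a dashed line. Of the 86 members 40 lie above the line, and the GST family has the largest share above it, 10 of 14.

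Gln deprivation was associated with more falls than rises among the tested members. The test throughout was limma on log2(FPKM + 0.1), with p-values adjusted over all 11880 genes that passed the minimum, and a gene is called at an adjusted p under 0.05. A fold change on this scale understates changes of genes near 0.1 FPKM. At 12 h, 10 of 40 members (25.0%) were called higher, against 29.1% of all genes tested, and 18 (45.0%) were called lower, against 31% of all. At 24 h, 8 members (20.0%) were called higher, against 33%, and 27 (67.5%) lower, against 31.7%. An absolute log2 fold change of at least 1 was reached by 7 called members at 12 h, or 17.5% against 3.95% of all genes, and by 9 at 24 h, or 22.5% against 6.04%. These include CYP2B6 at both times and SULT2B1 at 24 h. Both genes passed the minimum only through the groups in which they were high, so their differences were built into their being tested. The median log2 fold change of the 40 members was −0.11 at 12 h and −0.27 at 24 h, beside −0.02 and 0.01 for all genes tested. Both times were compared with the same 3 Gln added libraries, so the columns of values below are not independent of each other.

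**Figure D2:**
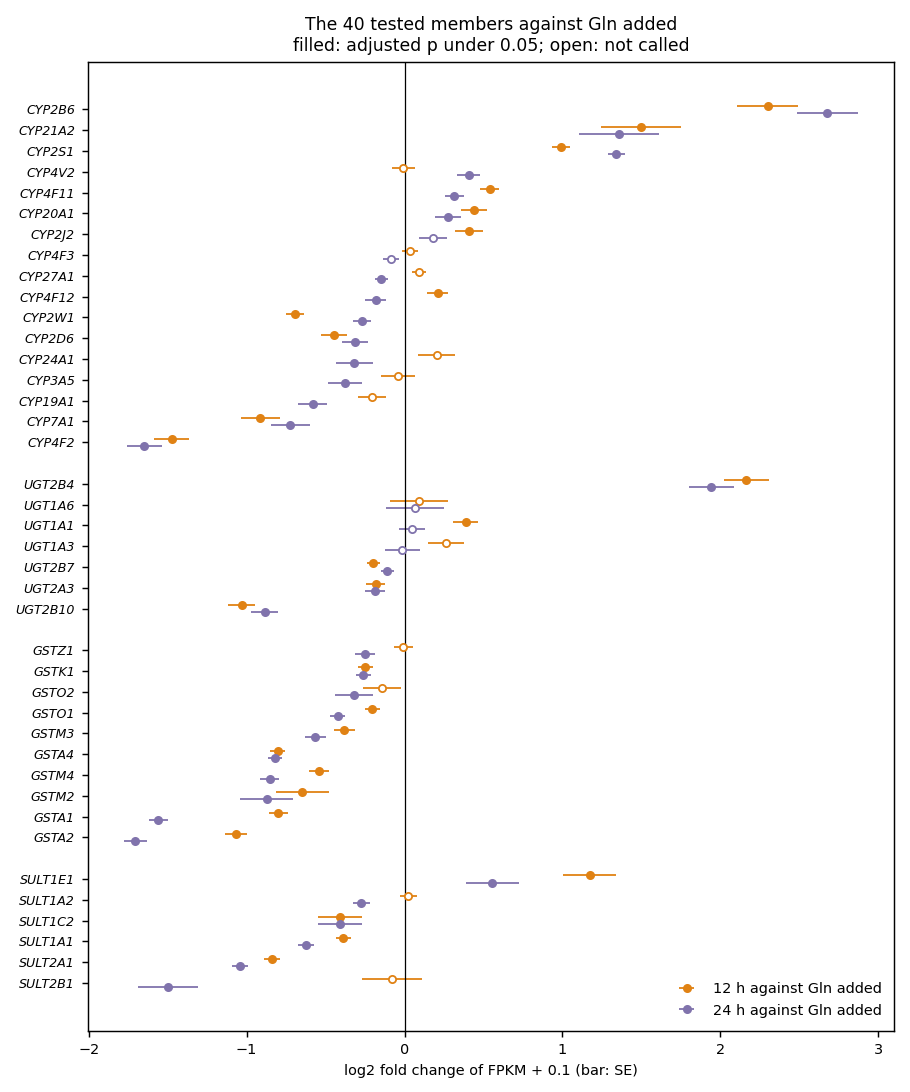
Log2 fold change of FPKM + 0.1 against Gln added for the 40 tested members at 12 h (orange) and 24 h (purple), with SE bars, grouped by family (CYP, UGT, GST and SULT from top to bottom) and ordered by the 24 h value. Filled points are called at an adjusted p under 0.05; no GST point lies clearly to the right of 0, and CYP2B6 and UGT2B4 stand farthest to the right.

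Every call among the tested GST genes was a fall. GST enzymes add glutathione, a tripeptide made from glutamate, cysteine and glycine, to reactive compounds. At 12 h, 8 of 10 tested GST genes were called lower and none higher, and at 24 h all 10 were called lower, with median log2 fold changes of −0.46 and −0.69. Of all genes tested, 31% were called lower at 12 h and 31.7% at 24 h. The alpha class, the main GST class of hepatocytes, had the lowest class medians (log2 −0.80 and −1.56 at the 2 times). GSTA1 had 28.9, 26.6 and 27.1 FPKM with Gln, 15.7, 15.1 and 16.5 at 12 h, and 10.1, 8.88 and 8.87 at 24 h. The 3 groups of GSTA1 did not overlap and stood in the order of the time without Gln. The log2 fold change of GSTA1 was −0.80 ± 0.06 (SE, adjusted p = 1.2e-06) at 12 h and −1.56 ± 0.06 (adjusted p = 5.3e-09) at 24 h. GSTA2, its close paralogue, had 18.7, 20.3 and 18.5 FPKM with Gln, 9.77, 8.17 and 9.45 at 12 h and 5.51, 5.86 and 6.08 at 24 h. Its groups did not overlap either, and its log2 fold changes were −1.07 ± 0.07 and −1.70 ± 0.07 (adjusted p = 4.7e-07 and 9.4e-09). GSTA4, an alpha enzyme that acts on lipid aldehydes, had 21.8 to 23.3 FPKM with Gln, 12.5 to 13.4 at 12 h and 12.2 to 13.2 at 24 h, so the 2 deprived groups overlapped and both lay below the Gln added libraries (log2 −0.80 and −0.82).

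GSTA1 (chr6:52791371-52803860, minus strand, GENCODE v44 on GRCh38) and GSTA2 (chr6:52750087-52763475, minus strand) lie in the same cluster on chromosome 6. Their start regions are shown because the 2 genes had the same order of groups and are near-identical, which also leaves reads of one open to being counted for the other. The windows are RefSeq promoters (GRCh38.p14, from 250 bases before to 50 after the start, 5′ to 3′ on the minus strand), at chr6:52803767-52804066 for GSTA1 and chr6:52763426-52763725 for GSTA2. Capitals mark the 12 positions at which they differ, 7 of them before the start, and the windows aligned without a gap with 288 of 300 bases identical (96%).
GSTA1: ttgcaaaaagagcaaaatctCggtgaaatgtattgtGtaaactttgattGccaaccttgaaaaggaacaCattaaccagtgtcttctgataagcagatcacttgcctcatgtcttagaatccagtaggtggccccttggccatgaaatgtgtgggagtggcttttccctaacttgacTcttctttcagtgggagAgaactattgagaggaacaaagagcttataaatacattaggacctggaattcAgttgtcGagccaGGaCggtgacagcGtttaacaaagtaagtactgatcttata
GSTA2: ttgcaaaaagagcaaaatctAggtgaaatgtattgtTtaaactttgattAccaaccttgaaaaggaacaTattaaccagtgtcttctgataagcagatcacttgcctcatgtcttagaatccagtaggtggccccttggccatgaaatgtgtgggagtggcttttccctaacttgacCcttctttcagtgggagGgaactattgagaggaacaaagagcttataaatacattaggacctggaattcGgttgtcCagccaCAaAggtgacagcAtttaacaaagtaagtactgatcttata

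The mu, omega, kappa and zeta classes had medians nearer to 0, of which that of the mu class was the lowest (−0.54 at 12 h and −0.86 at 24 h), and at 24 h GSTM2 and GSTM4 lay beside GSTA4 of the alpha class. GSTM2, GSTM3 and GSTM4, mu enzymes that conjugate epoxides and other electrophiles, were called lower at both times, with log2 fold changes of −0.65 to −0.38 at 12 h and −0.87 to −0.57 at 24 h. GSTM4 had 10.5 to 12.1 FPKM with Gln, 7.44 to 8.20 at 12 h and 5.98 to 6.50 at 24 h, with no overlap between groups. GSTO1, an omega enzyme that reduces disulfides and the most abundant member of all, had 235, 221 and 240 FPKM with Gln, 209, 196 and 200 at 12 h and 184, 162 and 174 at 24 h. Its libraries also did not overlap, with log2 fold changes of −0.20 ± 0.05 (adjusted p = 0.0046) and −0.42 ± 0.05 (adjusted p = 2.5e-05). GSTK1, the mitochondrial and peroxisomal kappa enzyme, was lower by a similar amount at both times (log2 −0.25 and −0.26, adjusted p = 0.001 and 0.00063). GSTZ1, an enzyme of tyrosine breakdown, was called only at 24 h (log2 −0.25, adjusted p = 0.0052). GSTO2 was also called only at 24 h, at −0.32 (adjusted p = 0.038), and that call was lost without any 1 of the 3 Gln added libraries or of replicates 2 and 3 at 24 h (−0.25 to −0.34), with no minimum (adjusted p = 0.082) and with the FPKM scaled to equal totals (−0.27, adjusted p = 0.068). GSTM1, GSTP1, GSTT2B and GSTT4 were below the minimum for testing.

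The sulfotransferases that were called also fell, with 1 exception. Of 6 tested SULT genes, 3 were called lower and 1 higher at 12 h, and 5 lower and 1 higher at 24 h. Of all genes tested, 31% were called lower and 29.1% higher at 12 h, and 31.7% and 33% at 24 h. The 6 SULT genes are too few for their 12 h counts to be read apart from these shares. SULT2B1, 1 of the 5 lower at 24 h, passed the minimum for testing only through the groups in which it was high. SULT2A1 (chr19:47870467-47886315, minus strand), the hepatic enzyme that sulfates bile acids and dehydroepiandrosterone, had 116, 112 and 116 FPKM with Gln, 67.4, 62.5 and 62.8 at 12 h and 60.0, 54.5 and 52.8 at 24 h. Every deprived library lay below every Gln added library, with log2 fold changes of −0.84 ± 0.05 and −1.04 ± 0.05 (adjusted p = 2.3e-07 and 3e-08). SULT1A1, which sulfates phenols, went from 73.6 to 81.6 FPKM with Gln to 56.7 to 62.2 at 12 h and 50.6 to 51.3 at 24 h. The 3 groups of SULT1A1 did not overlap (log2 −0.39 and −0.62, adjusted p = 5.5e-05 and 1.2e-06). Its neighbour and close relative SULT1A2 had 29.5 to 31.0 FPKM with Gln and 29.1 to 33.8 at 12 h, and 24.5 to 25.5 at 24 h, and was called lower only at 24 h (log2 −0.27, adjusted p = 0.0011). In GENCODE v44, 23.2% of the exonic bases of SULT1A1 and 22.1% of those of SULT1A2 lie in another gene on the same strand, so their values are uncertain.

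SULT2B1 and SULT1E1 were low and had different time courses. SULT2B1 (chr19:48552172-48599425, plus strand), a sulfotransferase of cholesterol and other hydroxysteroids, had 0.718, 0.570 and 0.921 FPKM with Gln, 0.697, 0.667 and 0.672 at 12 h and 0.159, 0.214 and 0.204 at 24 h. Its 12 h libraries lay within the range of the Gln added libraries (log2 −0.08 ± 0.19, adjusted p = 0.73), and all 24 h libraries lay below both groups (log2 −1.5 ± 0.19, adjusted p = 4.6e-05). The 24 h values rest on 8 to 10 fragments per library. SULT2B1 passed the minimum through the Gln added and 12 h groups (means 0.736 and 0.679 FPKM, against 0.192 at 24 h), so a difference was built into its being tested, and its 24 h log2 fold change was −0.54 with a constant of 1 and −1.87 with a constant of 0.01. SULT1E1 (chr4:69841212-69860145, minus strand), the estrogen sulfotransferase, was the SULT gene that rose, with 0.868, 0.824 and 0.762 FPKM with Gln, 1.76, 1.83 and 2.37 at 12 h and 1.5, 1.38 and 0.936 at 24 h. Both deprived groups lay above the Gln added libraries, with log2 fold changes of 1.17 ± 0.17 (adjusted p = 0.00015) and 0.56 ± 0.17 (adjusted p = 0.014), and the later call was lost without replicate 1 at 24 h (log2 0.43). In GENCODE v44, 24.1% of the exonic bases of SULT1E1 lie in another gene on the same strand, so its values are uncertain. SULT1C2 was called lower at both times (log2 −0.41 at each), but lost the call at 12 h without Gln added replicate 1 or 3 or 12 h replicate 1 or 3 (−0.28 to −0.41), and at 24 h without Gln added replicate 1 or 3 or 24 h replicate 1 (−0.35 to −0.38), and at both times with no minimum (adjusted p = 0.071 and 0.065). SULT1B1 was below the minimum, at 0.0770 to 0.143 FPKM with Gln, 0.209 to 0.302 at 12 h and 0.303 to 0.477 at 24 h, and was called higher at both times only where no minimum was set (log2 0.74 and 1.26, adjusted p = 0.019 and 0.001).

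Among the glucuronosyltransferases the largest changes were of opposite sign. Of 7 tested UGT genes, 2 were called higher and 3 lower at 12 h, and 1 higher and 3 lower at 24 h. Over all genes tested the shares were 29.1% and 31% at 12 h and 33% and 31.7% at 24 h, and the UGT genes are too few for their counts to be read apart from these. UGT2B4 (chr4:69480165-69526014, minus strand), which glucuronidates bile acids, had 0.784, 0.648 and 0.869 FPKM with Gln, 3.46, 3.73 and 4.14 at 12 h and 2.58, 3.72 and 3.46 at 24 h. All deprived libraries lay above all Gln added libraries, with log2 fold changes of 2.16 ± 0.14 and 1.94 ± 0.14 (adjusted p = 4.3e-07 and 6.6e-07) and means 4.92 and 4.24 times that of the Gln added group. UGT2B10 (chr4:68815994-68832023, plus strand), known for the glucuronidation of tertiary amines, went the other way, with 22.3, 21.6 and 22.5 FPKM with Gln, 9.79, 10.2 and 12.5 at 12 h and 11.4, 11.5 and 13.0 at 24 h. Both deprived groups of UGT2B10 overlapped each other and lay below the Gln added libraries (log2 −1.03 ± 0.09 and −0.88 ± 0.09, adjusted p = 2.5e-06 and 5.7e-06).

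UGT2A3, the most abundant UGT gene, and UGT2B7, a broad drug and steroid enzyme, changed by little. UGT2A3 had 47.0 to 49.6 FPKM with Gln, 40.3 to 46.6 at 12 h and 39.3 to 45.1 at 24 h, and was called lower at both times (log2 −0.18 and −0.19, adjusted p = 0.027 and 0.022). Its 12 h call was lost without Gln added replicate 1 or 3 or 12 h replicate 1 or 2 (−0.14 to −0.18), and its 24 h call without Gln added replicate 1 or 3 or 24 h replicate 1 (−0.13 to −0.19). Both calls of UGT2A3 were also lost with no minimum (adjusted p = 0.065 and 0.053) and with the FPKM scaled to equal totals (log2 −0.15 and −0.14, adjusted p = 0.075 and 0.086), and that at 12 h with eBayes run without a trend (adjusted p = 0.051). UGT2B7 had 15 to 15.8, 13.1 to 13.9 and 13.9 to 14.7 FPKM, with log2 fold changes of −0.20 (adjusted p = 0.002) and −0.11 (adjusted p = 0.041). The 24 h call of UGT2B7 was lost without Gln added replicate 1 or 2 or 24 h replicate 1 or 3 (−0.09 to −0.11), with the FPKM scaled to equal totals (−0.06, adjusted p = 0.24), with voom on the recovered fragments (adjusted p = 0.085) and with eBayes run without a trend (adjusted p = 0.05016). UGT1A1, the bilirubin-conjugating enzyme, had 4.06 to 4.72 FPKM with Gln, 5.37 to 6.14 at 12 h and 4.10 to 4.85 at 24 h, and was called higher at 12 h (log2 0.39, adjusted p = 0.002) but not at 24 h (log2 0.05, adjusted p = 0.65). UGT1A3 and UGT1A6 were called at neither time, although UGT1A3 was called higher at 12 h without 12 h replicate 2 (log2 0.38), with a replicate block (log2 0.26, adjusted p = 0.019) and under both other scalings (log2 0.30 and 0.28, adjusted p = 0.043 in each). The UGT1A genes share their last exons, and from 44.2% to 77.9% of the exonic bases of the 3 tested ones lie in another gene on the same strand, so reads may have been split between them.

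Among the CYP genes 7 of 17 tested were called higher and 4 lower at 12 h, and 6 higher and 9 lower at 24 h, beside 29.1% and 31% of all genes at 12 h and 33% and 31.7% at 24 h. Within the drug-metabolising subfamilies the largest change among tested genes was in CYP2B6 (chr19:40991282-41018398, plus strand), the classical target of the xenobiotic receptor CAR. CYP2B6 had 0.0912, 0.0559 and 0.0366 FPKM with Gln, 0.638, 0.691 and 0.732 at 12 h and 0.973, 0.803 and 0.999 at 24 h. Its groups did not overlap, and the log2 fold changes were 2.30 ± 0.19 and 2.68 ± 0.19 (adjusted p = 2.8e-06 and 6.1e-07). The Gln added values rest on 4 to 10 fragments per library, and the mean was 11.2 times as high at 12 h and 15.1 times as high at 24 h without the added constant. CYP2B6 passed the minimum for testing only through the deprived groups (means 0.687 and 0.925 FPKM, against 0.0613 with Gln), so a difference was built into its being tested. The size also hangs on the constant, with log2 fold changes of 0.67 at 12 h and 0.86 at 24 h for a constant of 1, under the 1.43 and 1.26 of UGT2B4, and 3.36 and 3.78 for a constant of 0.01. CYP2B6 has a near-identical pseudogene neighbour, as do CYP2D6 and CYP21A2, and how such reads were assigned is not given in the sources used here.

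The start region of CYP2B6 is shown because this gene had the largest log2 rise of the tested members with the constant of 0.1 and its window held 3 of the 4 motifs searched for. The window is at chr19:40991032-40991331 on the plus strand (RefSeq, GRCh38.p14). From 5′ to 3′, capitals mark the reverse complement of the HNF4 motif CAAAGTCCA beginning 231 bases before the start, the ATF4 composite element TGATGNAA beginning 92 bases before it, and the reverse complement of the antioxidant response core TGACNNNGC beginning 41 bases before it.
CYP2B6: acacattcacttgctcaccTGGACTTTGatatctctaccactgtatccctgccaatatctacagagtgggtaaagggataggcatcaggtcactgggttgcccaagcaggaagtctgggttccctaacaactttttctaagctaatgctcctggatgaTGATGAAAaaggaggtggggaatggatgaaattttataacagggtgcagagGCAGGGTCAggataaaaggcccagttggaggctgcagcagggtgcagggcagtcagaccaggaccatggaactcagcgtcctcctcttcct

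The other drug-metabolising CYP genes were low or changed by less. CYP2D6, which metabolises many basic drugs, had 4.13 to 4.88 FPKM with Gln, 3.00 to 3.47 at 12 h and 3.31 to 3.72 at 24 h, and was called lower at both times (log2 −0.45 and −0.31, adjusted p = 0.00086 and 0.0068). CYP2J2, an epoxygenase of arachidonic acid, was called higher at 12 h (log2 0.41, adjusted p = 0.0027) and not at 24 h (log2 0.18, adjusted p = 0.1), where the call appeared without Gln added replicate 3 (log2 0.29). CYP3A5 had 1.05 to 1.29 FPKM with Gln, 1.10 to 1.16 at 12 h and 0.824 to 0.918 at 24 h, and was called lower at 24 h only (log2 −0.38, adjusted p = 0.011). Its fetal relative CYP3A7 was below the minimum, at 0.399 to 0.676, 0.279 to 0.406 and 0.246 to 0.296 FPKM, and was called lower at 24 h only where no minimum was set (log2 −0.82, adjusted p = 0.012). Of the exonic bases of CYP3A7, 42.6% lie in another gene on the same strand, so its values are uncertain. CYP2C8 lay between 0.0409 and 0.153 FPKM and CYP2E1, the ethanol-inducible form, between 0.0669 and 0.449 FPKM over the 9 libraries. Every deprived library of CYP2C8 lay below every Gln added library. It had 64 fragments in all and was called at neither time where no minimum was set. Of the exonic bases of CYP2E1, 25.4% lie under a gene on the opposite strand, so its values are uncertain.

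In the CYP4 family, whose members hydroxylate fatty acids and eicosanoids, neighbouring genes moved in opposite directions. CYP4F2 (chr19:15878023-15898077, minus strand), which also inactivates vitamin K, had 7.84, 7.87 and 7.0 FPKM with Gln, 2.65, 2.69 and 2.63 at 12 h and 2.85, 2.31 and 1.96 at 24 h. All deprived libraries lay below the Gln added ones (log2 −1.48 ± 0.11 and −1.65 ± 0.11, adjusted p = 1.3e-06 and 3.8e-07). CYP4F11 (chr19:15912367-15934867, minus strand) had 12.5, 12.3 and 11.2 FPKM with Gln, 17.9, 18.3 and 16.4 at 12 h and 15.4, 15.5 and 14.0 at 24 h. All deprived libraries of CYP4F11 lay above the Gln added ones (log2 0.54 ± 0.06 and 0.31 ± 0.06, adjusted p = 2.8e-05 and 0.001). CYP4F12 was called higher at 12 h (log2 0.21, adjusted p = 0.019) and lower at 24 h (log2 −0.18, adjusted p = 0.033). Its 12 h call was lost without Gln added replicate 3 or 12 h replicate 1 or 2 (0.16 to 0.20), and its 24 h call without Gln added replicate 1 or 2 or 24 h replicate 1 or 3 (−0.13 to −0.18), with no minimum (adjusted p = 0.06) and with the FPKM scaled to equal totals (−0.14, adjusted p = 0.094). CYP4F3, at 7.0 to 8.17 FPKM over all libraries, was called at neither time. CYP4V2, a fatty acid hydroxylase of which loss causes a crystalline corneal and retinal dystrophy, was called higher at 24 h only (log2 0.41, adjusted p = 0.00061).

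The start regions of CYP4F2 and CYP4F11 are shown because these 2 related genes on the minus strand of chromosome 19 differed in direction. The windows are RefSeq promoters (GRCh38.p14, 5′ to 3′ on the minus strand) at chr19:15898025-15898324 for CYP4F2 and chr19:15934818-15935117 for CYP4F11, of which the farther upstream of 2 listed starts is printed, the one more like CYP4F2. They were 67% identical over 321 aligned columns (215 bases), and the other CYP4F11 window was 45.8% identical to that of CYP4F2. The capitals in CYP4F11 mark the reverse complement of the antioxidant response core, beginning 156 bases before the start, and the window of CYP4F2 held none of the 4 motifs.
CYP4F2: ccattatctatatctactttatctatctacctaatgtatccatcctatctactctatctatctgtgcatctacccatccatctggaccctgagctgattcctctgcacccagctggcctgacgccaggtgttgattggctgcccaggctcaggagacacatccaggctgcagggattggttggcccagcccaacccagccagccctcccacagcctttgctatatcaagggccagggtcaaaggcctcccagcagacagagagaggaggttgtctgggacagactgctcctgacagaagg
CYP4F11: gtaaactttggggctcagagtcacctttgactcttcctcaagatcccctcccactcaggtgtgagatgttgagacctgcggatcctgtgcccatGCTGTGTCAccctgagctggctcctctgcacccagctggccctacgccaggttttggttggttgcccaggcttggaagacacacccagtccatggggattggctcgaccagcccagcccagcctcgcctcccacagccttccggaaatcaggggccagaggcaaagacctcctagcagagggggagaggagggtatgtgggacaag

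**Figure D3:**
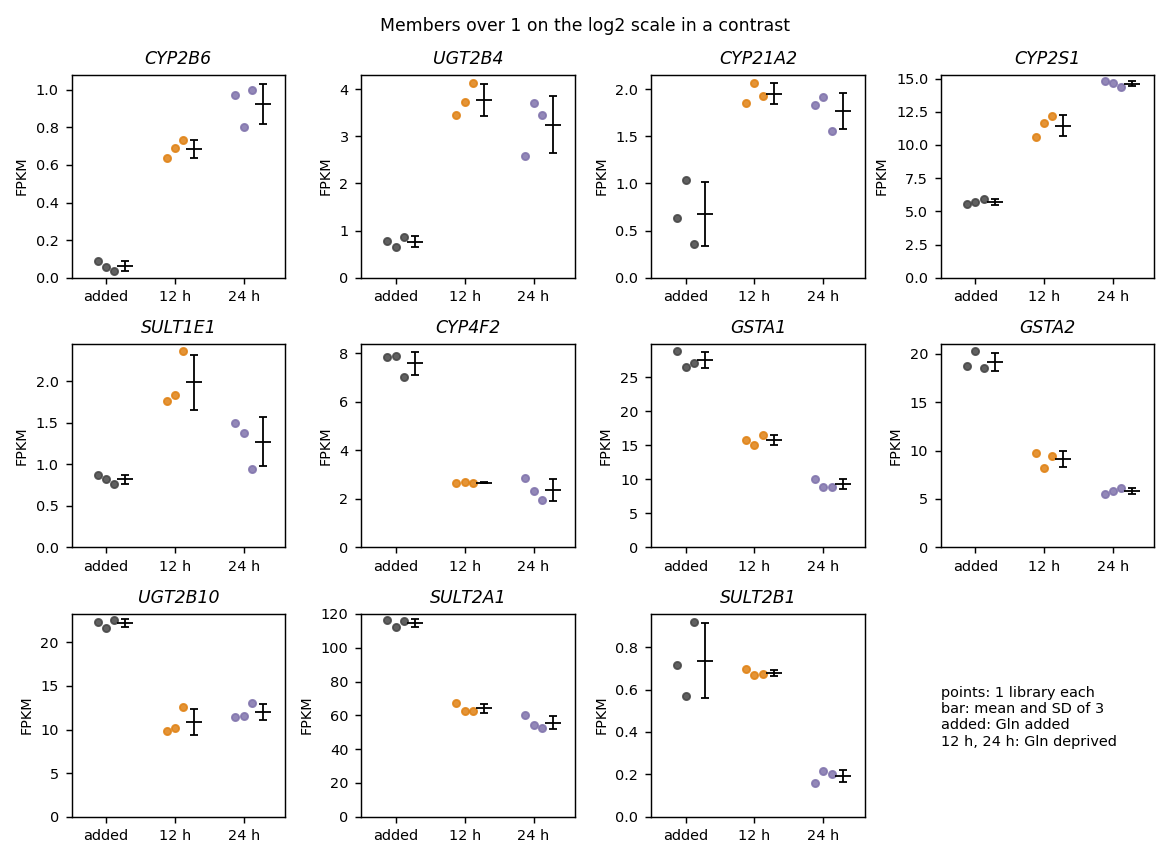
FPKM (linear axis from 0) of the 11 members that reached an absolute log2 fold change of at least 1 in any comparison, with 1 point per library and the mean and SD of the 3 libraries of each group beside the points. CYP2B6, UGT2B4, CYP21A2, CYP2S1 and SULT1E1 are higher in all deprived libraries, and SULT2B1 is lower only at 24 h.

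Genes of bile acid and steroid metabolism were mixed. CYP7A1, the rate-limiting enzyme of classical bile acid synthesis, had 2.49, 1.95 and 2.07 FPKM with Gln, 1.01, 1.17 and 1.13 at 12 h and 1.26, 1.13 and 1.44 at 24 h. The deprived libraries of CYP7A1 all lay below the Gln added ones (log2 −0.91 ± 0.12 and −0.72 ± 0.12, adjusted p = 8.3e-05 and 0.00036). CYP27A1, the mitochondrial sterol hydroxylase and the most abundant CYP gene, had 88.3 to 93.2 FPKM with Gln and 91.8 to 101 at 12 h (log2 0.09, adjusted p = 0.085), and 80.4 to 84.9 at 24 h (log2 −0.15, adjusted p = 0.011). It was called higher at 12 h without 12 h replicate 3 (log2 0.13), with the FPKM scaled to equal totals (log2 0.13, adjusted p = 0.02) and with a replicate block (adjusted p = 0.028). CYP8B1, the hydroxylase that leads to cholic acid, was below the minimum at 0.244 to 0.404, 0.0824 to 0.217 and 0.106 to 0.130 FPKM. All deprived libraries of CYP8B1 lay below the Gln added ones, and it was called lower at both times where no minimum was set (log2 −0.83 and −0.91, adjusted p = 0.022 and 0.012). CYP39A1, an oxysterol hydroxylase of bile acid synthesis, was also below the minimum, at 0.0444 to 0.115 FPKM with Gln, 0.180 to 0.219 at 12 h and 0.211 to 0.258 at 24 h. Its deprived libraries all lay above the Gln added ones, and it was called higher at both times where no minimum was set (log2 0.76 and 0.92, adjusted p = 0.0069 and 0.0021). CYP21A2 (chr6:32038327-32041644, plus strand), the adrenal steroid hydroxylase, had 0.636, 1.03 and 0.361 FPKM with Gln, 1.85, 2.07 and 1.93 at 12 h and 1.83, 1.92 and 1.56 at 24 h. Its Gln added libraries were widely spread, yet all lay below the deprived ones (log2 1.5 ± 0.25 and 1.36 ± 0.25, adjusted p = 0.00046 and 0.00074), and 10.6% of its exonic bases lie under a gene on the opposite strand. CYP19A1, the aromatase that makes estrogens, changed by −0.21 on the log2 scale at 12 h (adjusted p = 0.068), where it was called lower without 12 h replicate 2 (−0.27) or 24 h replicate 2 (−0.21), and by −0.58 at 24 h (adjusted p = 0.00019). The 12 h call of CYP19A1 also appeared with just the 2 groups in the fit (adjusted p = 0.045) and with voom on the recovered fragments (adjusted p = 0.04).

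Of the remaining CYP genes, CYP2S1 (chr19:41193210-41207539, plus strand), an extrahepatic form that acts on retinoids and eicosanoids, was called higher at both times. It had 5.52, 5.68 and 5.93 FPKM with Gln, 10.6, 11.6 and 12.2 at 12 h and 14.8, 14.7 and 14.4 at 24 h. The 3 groups did not overlap and stood in the order of the time without Gln (log2 0.99 ± 0.06 and 1.34 ± 0.06, adjusted p = 1.4e-07 and 9.4e-09). CYP2W1, a form found mainly in fetal tissue and tumors, had 17.2 to 17.7 FPKM with Gln, 10.0 to 11.1 at 12 h and 13.7 to 15.5 at 24 h. It was lowest at 12 h and intermediate at 24 h, with no overlap between groups (log2 −0.70 and −0.27, adjusted p = 2.2e-06 and 0.0017). CYP20A1, an orphan form, was called higher at both times (log2 0.44 and 0.27, adjusted p = 0.00087 and 0.013), the later call being lost without Gln added replicate 2 or 24 h replicate 3 (0.22 and 0.23). CYP24A1, which inactivates vitamin D, was the only tested member of the vitamin D and retinoid group, at 0.900 to 1.05, 1.04 to 1.23 and 0.710 to 0.825 FPKM. It was called lower at 24 h (log2 −0.32, adjusted p = 0.034), and the call was lost without Gln added replicate 2 or 3 or 24 h replicate 2 or 3 (−0.27 to −0.32), with a replicate block (adjusted p = 0.054), with just the 2 groups in the fit (adjusted p = 0.052), with no minimum (adjusted p = 0.073) and with the FPKM scaled to equal totals (−0.28, adjusted p = 0.06). CYP26B1, which breaks down retinoic acid, was below the minimum at 0.0660 to 0.117, 0.219 to 0.283 and 0.151 to 0.205 FPKM. Its 3 groups did not overlap, and it was called higher at both times where no minimum was set (log2 0.81 and 0.47, adjusted p = 0.0038 and 0.046).

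The 2 times without Gln were also compared directly. Between 24 h and 12 h, 3 of 40 members (7.5%) were called higher at 24 h, against 9.57% of all genes, and 16 (40%) were called lower, against 10.5%. SULT2B1 alone passed an absolute log2 difference of 1, or 2.5% of members against 0.303% of all genes, at −1.42 ± 0.19 (adjusted p = 0.00057) and −0.49 with a constant of 1, and its 24 h mean lay below the minimum for testing. The members higher at 24 h than at 12 h were CYP2S1 (log2 0.35), CYP2W1 (0.43) and CYP4V2 (0.41). GSTA1 and GSTA2 fell further, by 0.76 and 0.64 on the log2 scale (adjusted p = 2.1e-05 and 0.00017), and SULT1A1 and GSTO1 by 0.23 and 0.22. SULT1A2, not called at 12 h against Gln added, fell by 0.30 between the times. SULT1E1, UGT1A1, CYP4F11 and CYP4F12, all higher at 12 h than with Gln, were lower at 24 h than at 12 h (log2 −0.62, −0.34, −0.22 and −0.39). Some of these calls rested on single libraries. Those of CYP4F11 and SULT2A1 were lost without 12 h replicate 1 (−0.21 and −0.17) or 24 h replicate 3 (−0.18 and −0.17), that of CYP4F11 also without 12 h replicate 2 (−0.19), that of UGT1A1 without 24 h replicate 3 (−0.28) and that of CYP19A1 without 12 h replicate 2 (−0.32). The call of SULT1E1 was lost without 12 h replicate 2 or 3 or 24 h replicate 3 (−0.43 to −0.67), with just the 2 groups in the fit (adjusted p = 0.055) and with no minimum (adjusted p = 0.083). That of GSTZ1 was lost without replicate 2 or 3 of either time (−0.20 to −0.25) and with just the 2 groups in the fit (adjusted p = 0.051). That of CYP4F11 was also lost with no minimum (adjusted p = 0.063). Calls appeared for CYP4F2 and GSTM2 without 24 h replicate 1 (−0.31 and −0.43), for UGT1A3 without 12 h replicate 2 (−0.40), for UGT2B10 without 12 h replicate 3 (0.25) and for CYP2J2 without Gln added replicate 3 (−0.23). Median-ratio scaling added calls for CYP3A5, CYP4F3 and GSTM3 (−0.37, −0.16 and −0.22). CYP3A5 was also called with eBayes run without a trend (−0.34) and with voom (−0.37), and UGT1A3 with a replicate block (−0.28).

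Summed over all members of a family, the GST and SULT levels were lower at each later time. The GST sum was 370.9 ± 7.92 FPKM (SD, n = 3) with Gln, 296.2 ± 6.13 at 12 h and 254.6 ± 13.0 at 24 h, and the SULT sum was 227.0 ± 4.73, 159.3 ± 7.25 and 134.8 ± 3.45. No library of 1 group overlapped another in these 2 families. The UGT sum was 95.0 ± 1.44 FPKM with Gln, 81.0 ± 6.01 at 12 h and 80.4 ± 4.17 at 24 h, with both deprived groups below the Gln added libraries and overlapping each other. The CYP sum was 171.9 ± 3.66, 179.9 ± 6.44 and 166.5 ± 4.48 FPKM, and the deprived groups overlapped the Gln added libraries. In two-sided exact permutation tests of 3 against 3 libraries, whose smallest p is 0.1, p was 0.1 for every comparison of the GST and SULT sums and for the UGT sum at each time against Gln added, 1.0 for the UGT sum between the times, and 0.3, 0.2 and 0.1 for the CYP sum at 12 h, at 24 h and between the times. Each sum leans on its top member, which over the 9 libraries held 65.9% of the GST sum (GSTO1), 45.1% of the SULT sum (SULT2A1), 52.2% of the UGT sum (UGT2A3) and 52.3% of the CYP sum (CYP27A1).

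**Figure D4:**
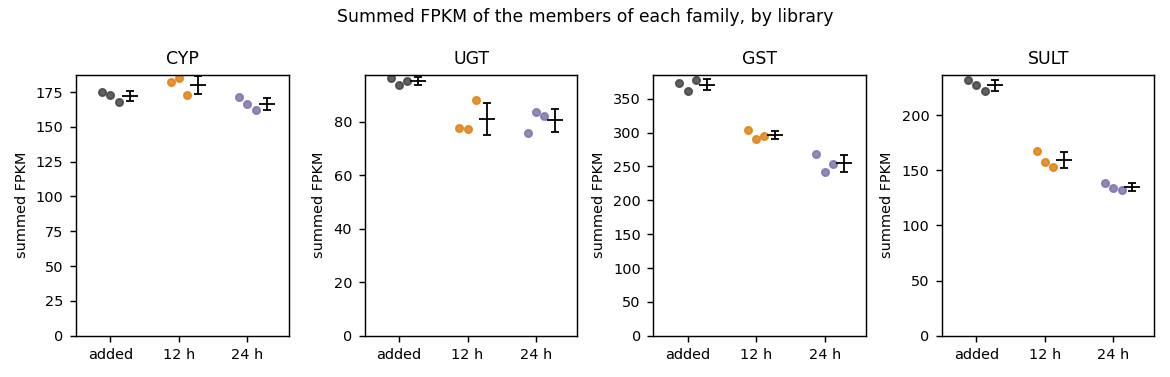
Summed FPKM of all members of each family (linear axes from 0, each family on its own scale), with 1 point per library and the mean and SD of the 3 libraries of each group. The GST and SULT sums lie lower at 12 h than with Gln and lower again at 24 h, the UGT sums of both deprived groups lie below those with Gln, and the CYP sums of the deprived groups overlap those with Gln.

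Genes that supply or control these enzymes were described by lists, whose counts stand beside 29.1% of all genes called higher and 31% lower at 12 h, and 33% and 31.7% at 24 h. Of 17 genes of P450 electron supply and haem synthesis, all tested, 12 were called lower and 1 higher at 12 h, and 13 lower and 1 higher at 24 h. The one that rose was POR, the reductase that feeds electrons to microsomal CYP enzymes, from 60.4 ± 2.25 FPKM (SD, n = 3) with Gln to 103.5 ± 4.52 at 12 h and 88.2 ± 3.85 at 24 h (log2 0.78 and 0.55). FDXR, which supplies the mitochondrial CYP enzymes, fell from 74.6 ± 0.512 to 44.8 ± 0.662 and 38.4 ± 3.43 FPKM. For the supply of conjugation cofactors, 3 of 7 tested genes were called lower at 12 h and 5 at 24 h, and none higher. Of 14 tested sensors and liver transcription factors, 7 were called higher and 3 lower at 12 h, and 6 higher and 5 lower at 24 h, of which the 3 lower at 12 h and the 5 at 24 h are near the share over all genes. NR1I3, which encodes CAR, was below the minimum (0.435 ± 0.0197 FPKM with Gln, 0.184 ± 0.0936 at 12 h and 0.329 ± 0.113 at 24 h), while NR0B2, a repressor of bile acid synthesis genes, rose by 0.75 and 1.13 on the log2 scale. Of 26 other drug-metabolising enzymes tested, 6 were called higher and 12 lower at 12 h, and 3 higher and 15 lower at 24 h. The 6 higher at 12 h are near the share over all genes. Of 9 efflux transporters tested, 7 were called higher and 1 lower at 12 h, and 7 higher and 2 lower at 24 h. ABCB1, the P-glycoprotein pump, rose from 18.2 ± 0.69 to 40.6 ± 1.47 and 44.3 ± 1.16 FPKM. The median log2 fold changes of the 5 lists were −0.40, −0.15, 0.11, −0.15 and 0.29 at 12 h and −0.47, −0.15, 0.05, −0.18 and 0.34 at 24 h, in the order given here.

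Short motifs were looked for in the RefSeq promoter windows, of which 66 of the 86 members had at least 1 and 33 of these were tested. Exact matches on both strands were counted, with N for any base, and a member with several windows was counted once if any held the motif, so members had more chances than single windows. The HNF4 motif CAAAGTCCA was in windows of 4 members (6.06%), CYP2A6, CYP2B6, CYP2C8 and CYP2R1, beside 0.384% of all 35116 windows. The HNF1 motif GTTAATNAT was in 1 member (UGT1A3, 1.52%) beside 0.792% of all. The antioxidant response core TGACNNNGC was in 12 members (18.2%) beside 13.3% of all, with 3 of the 7 members called higher at 24 h and 4 of the 21 called lower. The ATF4 element TGATGNAA was in 2 members, CYP2B6 and SULT1E1 (3.03% beside 3.62% of all), so it was not more frequent in members. Both are among the 7 members called higher at 24 h, and 0 of the 21 called lower held it. CYP2B6 is also 1 of the 3 members called higher that held the antioxidant core. CYP2B6 passed the minimum for testing only through its deprived groups. This leaves SULT1E1 alone for the ATF4 element, so these matches are not tied to direction here. A match describes the letters in the window and is not a site of binding.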

How the data were processed

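RNA-seq of HepG2 cells was analysed in 9 libraries, 3 per group, grouped by the labels. According to the methods, the authors aligned reads to GRCh38 with STAR and tested with DESeq2. The submitters' processing notes also name HTSeq and R 3.2.0, and the annotation used for counting is not given in the sources used here. The labels name a VAHTS kit and the methods a strand-specific NEBNext kit, so strandedness is unknown. FPKM were deposited by the authors for each gene in each library, with no further scaling stated.

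Whole fragments behind the FPKM were solved from their steps for 100% of the 22587 genes (tolerance 0.001 of a fragment), which gave the depths. FPKM are not counts, so log2(FPKM + 0.1) was fitted with limma 3.58.1 under R 4.3.3 (lmFit, then eBayes using a trend). The fit held all 3 groups and the 11880 genes that averaged 0.5 FPKM or more, and p-values were adjusted over these genes by the Benjamini-Hochberg method. Limma's voom on the recovered fragments was an alternative, beside a pseudocount of 1 or 0.01, other minimums (none or 1 FPKM), median-ratio scaling, rescaling of FPKM to equal totals, fits of 2 groups at a time, a replicate block, eBayes without a trend and each library left out. Scripts were tested on simulated data with known changes. Replicates of every group differed beyond sampling noise (chi-square per degree of freedom 2.80 to 13.5), and each counted as 1 sample. At 24 h replicate 1 was farthest from the others (13.5 and 9.1, beside 4.94 for replicates 2 and 3). At 12 h it was replicate 3 (7.42 and 7.88, beside 3.26 for replicates 1 and 2).

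Named were members called with an absolute log2 fold change of at least 1, the 5 most abundant per family and a list of well-known members, of which GSTT1 is not a row of the table analysed here. Some genes that the rule selects are left out of the text. GSTM2, GSTM3, GSTM4, GSTO2, GSTZ1, SULT1B1, CYP26B1, CYP39A1, CYP2J2, CYP4V2, CYP4F12, CYP19A1 and CYP20A1, and the windows printed, were picked after their values were seen. The members and all lists were chosen with earlier results of these data known. Positions and exon overlaps come from GENCODE v44, promoter windows from RefSeq on GRCh38.p14. Python 3.11.15 and matplotlib 3.10.9 drew the figures.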

Additional observations from a re-analysis of the deposited data

Results flagged for a closer look

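The following members differed between 24 h and 12 h without Gln in limma's test of that difference (adjusted p under 0.05). On the log2 scale, 24 h minus 12 h, the differences were 0.35 for CYP2S1, 0.43 for CYP2W1 and 0.41 for CYP4V2. In the CYP family they were also −0.38 for CYP19A1, −0.52 for CYP24A1, −0.24 for CYP27A1, −0.22 for CYP4F11 and −0.39 for CYP4F12. In the GST family they were −0.76 for GSTA1, −0.64 for GSTA2, −0.31 for GSTM4, −0.22 for GSTO1 and −0.24 for GSTZ1. In the SULT family they were −0.23 for SULT1A1, −0.30 for SULT1A2, −0.62 for SULT1E1, −0.20 for SULT2A1 and −1.42 for SULT2B1, and UGT1A1 differed by −0.34. No test for single outlying libraries was run within groups of 3, but each library was left out in turn. The cause of these differences was not tested.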

How the results depend on the processing

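The 6 counts of members called higher or lower stayed within 1.5 times their value under every alternative run, and the 12 changes of the family sums moved by less than their spread, taken as the SDs of both groups combined. When single libraries were left out, the members called higher numbered 9 to 11 at 12 h, 7 to 9 at 24 h and 3 to 4 between the times, and those called lower 16 to 19, 22 to 27 and 11 to 18. In the main fit, 29.1% of all genes tested were called higher and 31% lower at 12 h, and 33% and 31.7% at 24 h. Between the times these shares were 9.57% and 10.5%. Without any 1 Gln added library, fewer genes were called lower at 24 h over all genes as well as among members. Of 120 log2 fold changes of single members, none that was called under the main or the alternative setting changed sign, and 29 changed their side of the threshold under at least 1 of up to 19 alternatives. With FPKM rescaled to equal totals, 22 members were called lower at 24 h in place of 27, and the count over all genes called lower at 24 h also fell. Under this rescaling the uncalled changes of the CYP sum at 24 h (−3.12%) and of the UGT sum between the times (−0.668%) became 0.121% and 0.271%. The replicate numbers showed no steady pairing of the libraries. The deviations of same-numbered libraries correlated at −0.14 to 0.28, and libraries did not all correlate best with their own number. With 3 libraries per group, this check cannot show that same-numbered cultures were handled apart. With a replicate block in the fit, 12 members were called higher and 18 lower at 12 h, 8 and 26 at 24 h, and 3 and 17 between the times. Under the block the counts over all genes also rose, in both directions and in each comparison. The 12 of 40 members higher at 12 h are near the share over all genes, and the 18 and 26 lower remained above it. The calls of the lowest genes are limited by depth, with CYP2B6 at 4 to 10 fragments per Gln added library and SULT2B1 at 8 to 10 per library at 24 h.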
